A study of Mus musculus with 9 samples.

Results

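Hes1, Hes6, Hey1, Hey2, Heyl, Nrarp, Dtx1, Dtx3 and Dtx4 are genes of the Hes, Hey and Deltex families, together with Nrarp, that are widely used as readouts or regulators of Notch signalling. These 9 genes were taken by symbol from the 52636 gene identifiers of a single-cell count table of the mouse thyroid, and all 9 were found. Their counts were summed for each sample and each of the 16 cell labels given by the authors. The filter on low counts was passed by 6 of the 9 in thyrocytes (label Th1) and by 6 in the largest endothelial label (EC1).

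When a ligand on a neighbouring cell engages a Notch receptor, the receptor is cut and its intracellular domain moves to the nucleus, where it joins the DNA-binding protein RBPJ and switches target genes on. Hes and Hey proteins are basic helix-loop-helix repressors, many of them made in response to that signal. Nrarp binds the nuclear Notch complex and dampens it, and Deltex proteins are ubiquitin ligases, some of which act on the receptor. In blood vessels, Hey genes are known for their part in arterial identity.

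Each sample was a pool of thyroids from 6 male C57BL/6 mice, taken 7 days after 1 intraperitoneal injection of antibody. Control mice received an antibody against ragweed at 40 mg/kg (group RW). The ligand group received antibodies against Jag1 and Jag2 at 20 mg/kg each (aJ1aJ2), and the receptor group antibodies against Notch1 at 5 mg/kg and Notch2 at 10 mg/kg (aN1aN2). Ages began at 10 weeks and ended at 12 weeks in the series' design text and at 14 weeks in the sample protocols. Each group had 3 samples. No group carried an engineered allele according to the labels. A p-value sets a difference between groups against the spread between these pools.

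The 9 libraries held 583 to 1805 cells and 3013324 to 11880793 unique molecular identifiers (UMIs, each standing for 1 captured RNA molecule). Of 10171 different cell barcodes, 15 occurred in more than 1 sample. Median UMIs per cell were 2098 to 2237 in aN1aN2 and 2823 to 4149 in the other samples. All 3 aN1aN2 samples came from a range of title numbers that held no other group, so receptor blockade and that range cannot be told apart. Summed thyrocyte markers led in Th1, with a median over RW samples of 96187 CPM (UMIs of a gene scaled to the same total in every sum), and summed endothelial markers in EC1 (13133 CPM) and EC4 (12932). F was led by fibroblast markers, SM by smooth muscle and S by Schwann cell markers. EC2 and EC3 were led by an adipocyte list through Fabp4, which capillary endothelium also makes, and then by endothelial markers, with lymphatic markers high in EC3. In sums of this kind, fewer cells of a type within a label and less RNA per cell cannot be told apart.

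Hes1, a widely used readout of Notch activity, was shared by endothelium, thyrocytes and fibroblasts in control thyroids. Levels across labels are CPM of the summed counts, compared for 1 gene at a time because the counts are not scaled to gene length. In EC1 the RW samples gave 206, 274 and 193 CPM of Hes1, in EC4 158, 347 and 218, in Th1 160.3, 185 and 113 and in F 225, 94.8 and 105. EC4, EC1, EC2, Th1, F and EC3 overlapped from neighbour to neighbour, so their order could not be read. S and Th3 came next with medians of 82.6 and 85.1 CPM, below every EC3 sample, and T1 followed at 16.3. SM, with 1 RW sample of at least 20 cells, RW 3, held 202 CPM on 29 UMIs there. Eryth1 and Eryth2, erythroid cells that should lack Hes1, held 5 and 3 UMIs of it in all RW samples.

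The share of cells with a Hes1 UMI was compared at equal depth by thinning each cell to 1000 UMIs and leaving out shallower cells. Hes1 was then seen in 18.5% of 660 RW cells of EC1, 14.8% of 425 of Th1 and 0.676% of 296 of Eryth1, with 1, 0 and 91 cells left out. Without thinning, at median depths of 4813, 17624 and 2021 UMIs, the shares were 56.6%, 83.8% and 1.03%, and thinned to 500 UMIs 10.4%, 5.88% and 0.258%. Erythroid markers summed to a median of 780693 CPM over RW samples of Eryth1. A thinned Eryth1 cell therefore keeps few other UMIs, and its share is not like for like with those of EC1 and Th1. Thyroglobulin (Tg), which thyrocytes make in bulk, stood in EC1 of RW at 0.902% of its Th1 level, and Hes1 at 154% of its own.

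Among labels with at least 2 RW samples of 20 cells or more, Nrarp was highest in the endothelial ones. The RW samples gave 129, 120.4 and 126 CPM of Nrarp in EC1, 100.5, 186 and 140.4 in EC4, 133 and 103 in the 2 samples with at least 20 cells of EC2, and 62.4, 72.3 and 91.8 in EC3. EC4, EC1 and EC2 overlapped, while every EC3 sample lay below EC2 and above S, the next label. Th1 held 3.34 to 7.11 CPM of Nrarp, and F had 1 UMI in its 3 RW samples. SM, with RW 3 alone at that cell number, held 12 UMIs of Nrarp there, 83.6 CPM.

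The small amount of Nrarp in Th1 can be set beside endothelial RNA in the same sums. Pooled over RW, Nrarp in Th1 was 4.19% of its EC1 level, and the sum of 6 endothelial markers was 3.29% of theirs. Over the 9 samples these percentages ran from 0 to 5.52 for Nrarp and from 0.872 to 4.43 for the markers, and both were lowest in aN1aN2 3. How much of Nrarp in Th1 comes from endothelial RNA was not tested.

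Hey1 and Hey2, repressors known for arterial endothelium, differed in place. Hey1 gave 91.7, 126 and 76.5 CPM in the RW samples of EC3, 47.5 and 85.7 in EC2 and 18.9, 26.2 and 43.5 in EC1. EC3 and EC2 overlapped, and EC1 lay below both. Th1 stayed at 5.34 to 6.69 CPM of Hey1, and the erythroid labels had no UMI of it. Hey2 was seen in EC3 (7.61 to 28.0 CPM) and EC1 (9.32 to 22.1), reached 56.3 in 1 of the 2 S samples and 0 in the other, and stood at 69.7 CPM on 10 UMIs in SM of RW 3, while EC2 had no UMI of it in any group.

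In the GRCm38 annotation the genes lie apart from one another: Hes1 at chr16:30064384-30067796 (plus strand), Hes6 at chr1:91411483-91414038 (minus strand), Hey1 at chr3:8663359-8667256 (minus strand), Hey2 at chr10:30832359-30842801 (minus strand), Heyl at chr4:123233556-123249875 (plus strand), Nrarp at chr2:25180758-25183339 (plus strand), Dtx1 at chr5:120680202-120711927 (minus strand), Dtx3 at chr10:127190378-127195728 (minus strand) and Dtx4 at chr19:12466338-12501454 (minus strand). The counts are per gene, so no exon is told apart.

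Promoter sequence from RefSeq (build GRCm38.p6) was matched for 4 of the 9 members, Hes6, Hey2, Nrarp and Dtx1. Hey2 and Nrarp are shown because both were lower in EC1 under receptor blockade, as described below. The motif searched on both strands was TGGGAA, the core of the RBPJ site, with TTCCCA as its reverse complement. Capitals mark these 6 bases. Hey2 lies on the minus strand of chromosome 10, and its stretches are chr10:30842802-30843033 and chr10:30842776-30842791. The first lies before both annotated starts. The second crosses the RefSeq start and lies inside the gene as annotated above, which begins at 30842801. The Nrarp stretch before its start is chr2:25180508-25180757, plus strand.
Hey2 upstream: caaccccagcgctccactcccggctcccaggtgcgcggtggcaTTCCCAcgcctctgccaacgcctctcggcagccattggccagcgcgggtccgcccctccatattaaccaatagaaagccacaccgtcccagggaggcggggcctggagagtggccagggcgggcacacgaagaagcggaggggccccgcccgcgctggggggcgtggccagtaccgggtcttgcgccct
Hey2 start site: cagcgTGGGAAagaac
Nrarp upstream: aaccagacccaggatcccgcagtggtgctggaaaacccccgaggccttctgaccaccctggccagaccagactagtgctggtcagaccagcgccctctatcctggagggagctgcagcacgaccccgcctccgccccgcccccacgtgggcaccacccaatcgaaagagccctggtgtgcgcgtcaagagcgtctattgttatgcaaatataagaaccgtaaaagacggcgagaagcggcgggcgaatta
The Hey2 window held 250 bases before the RefSeq start and 50 from it on. TGGGAA stood in it at positions -207 to -202 on the opposite strand and -3 to 2 on its own strand. In these positions the start base counts as 0. The windows of Nrarp, Hes6 and Dtx1 held no match, which says only that these letters are not in them. Of 32851 promoter windows of that length, 25.6% held TGGGAA, and 6.38% held GTGGGAA, which overlaps both Hey2 matches.

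Heyl, a Hey relative known from smooth muscle of the vessel wall, was highest in SM, with 237 CPM in RW 3, the only RW sample with at least 20 cells there. F held 10.5, 25.4 and 43.6 CPM of Heyl, EC3 21.5, 9.51 and 38.2 and Th1 14.0, 10.7 and 15.3, and these labels overlapped. EC1 held 10 UMIs of Heyl in 661 RW cells. Heyl in Th1 of RW was 7.12% of its pooled SM level, while smooth muscle markers in Th1 were at 0.134% and pericyte markers at 0.980% of theirs.

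Hes6, a relative known from differentiating progenitors, was highest in Th1 and Th3, the latter a label with both thyrocyte and C cell markers, among labels with at least 2 RW samples of 20 cells or more. Its RW values were 44.2, 49.4 and 58.7 CPM in Th1 and 41.1, 55.0 and 45.8 in Th3, which overlapped, and every sample of M, the next label by median, lay below them. Of the 2 S samples, 1 reached 43.3 and 1 was at 0. T2, a label with T cell and thymocyte markers and no aN1aN2 cell, had only RW 2 at that cell number and was higher, with 75.5 CPM of Hes6 in RW 2 and 77.8 in aJ1aJ2 3.

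**Figure D1:**
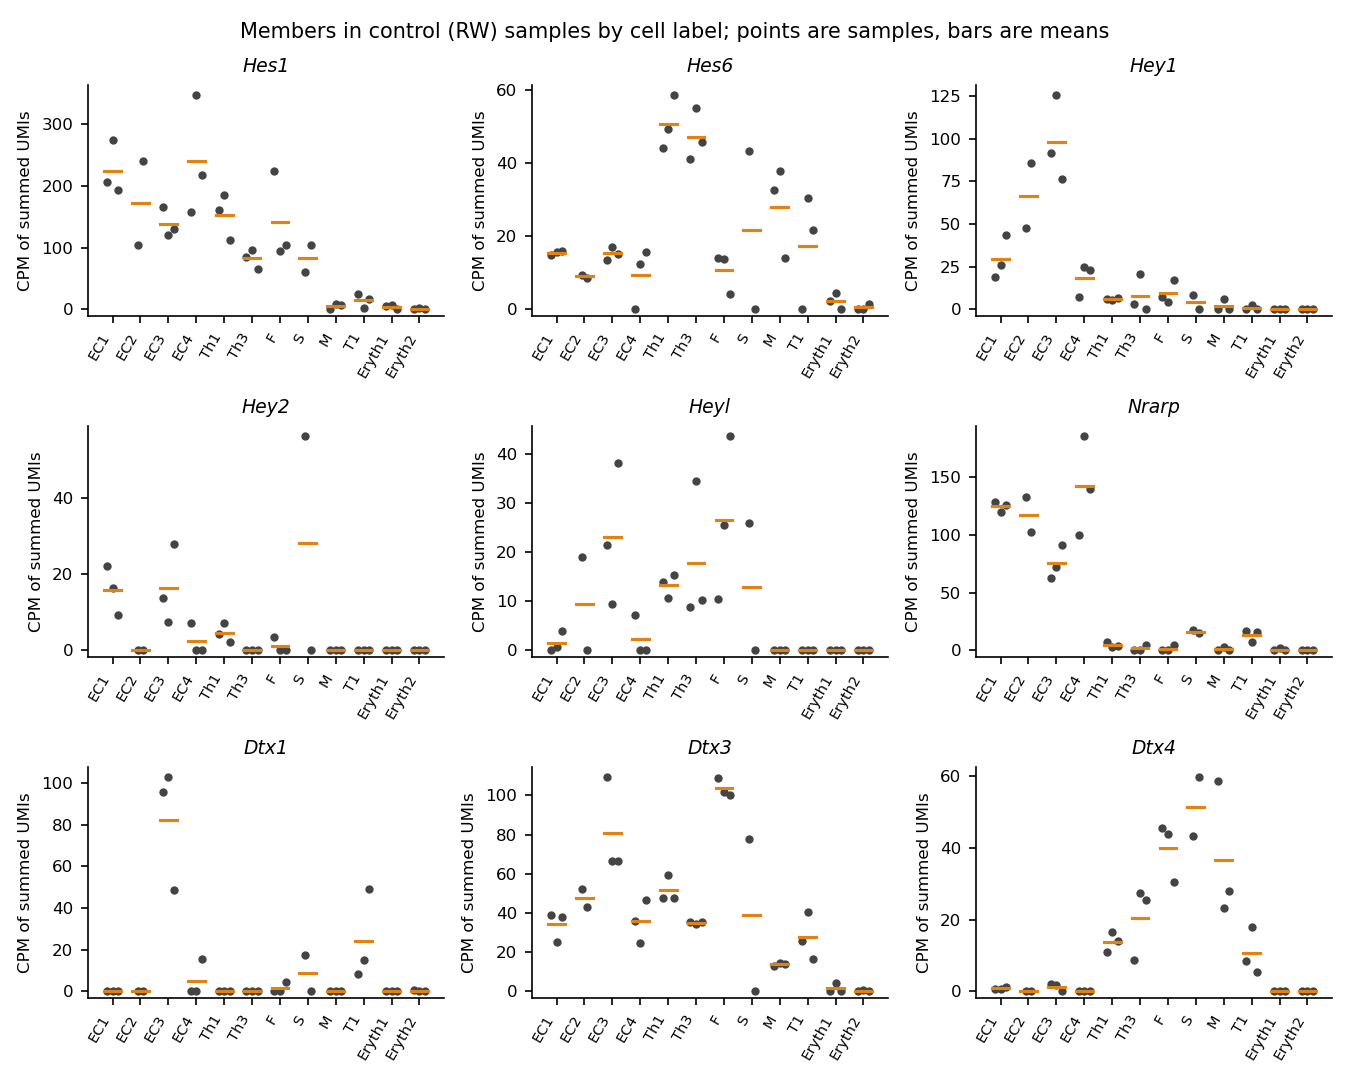
Level of each of the 9 genes in control (RW) samples, as CPM of summed UMIs on the vertical axis, by cell label; points are samples with at least 20 cells of the label and bars their means. Among the labels drawn, Nrarp is high in the EC labels, Hey1 in EC2 and EC3, Hes6 in Th1 and Th3 and Dtx1 in EC3. S of RW 1 is at 43.3 CPM for Hes6, and T1 of RW 3 at 48.9 for Dtx1. SM, T2, Th2 and P are not drawn. SM of RW 3 is at 83.6 CPM for Nrarp, 237 for Heyl and 327 for Dtx3. T2 of RW 2 is at 75.5 CPM for Hes6.

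The Deltex genes did not share a pattern. Dtx3 was broad, with 109, 102 and 100.3 CPM in F and 109, 66.6 and 66.3 in EC3, which overlapped, and 47.5 to 59.4 in Th1 below them. SM of RW 3 was higher than all of these, at 327 CPM on 47 UMIs. Dtx4 had RW medians of 51.5 CPM in S, 43.9 in F and 28.1 in M, a macrophage label, and gave 10.9 to 16.7 in Th1 and 0.650 to 1.33 in EC1. Dtx1 stood at 95.6, 103 and 48.4 CPM in EC3 on 122 UMIs and at 8.58, 15.3 and 48.9 in T1 on 16, where 1 sample overlapped EC3, and Th1, EC1 and EC2 had none.

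Dtx1 within EC3 lay in the cells with lymphatic markers. Cells with at least 2 UMIs over Prox1, Lyve1, Pdpn, Flt4, Ccl21a and Mmrn1, a division chosen after values were seen, made up 39 of 134 RW cells and held 121 of the 122 UMIs of Dtx1. They held 215 of 220 in aJ1aJ2 and 19 of 19 in aN1aN2. Hey1 was placed the other way in RW, at 42.6 CPM in these cells and 135 in the rest of EC3.

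In those lymphatic-marker cells Dtx1 stood at 272, 214 and 171 CPM in RW, 593, 578 and 388 in aJ1aJ2 and 487, 0 and 201 in aN1aN2. All aJ1aJ2 samples lay above all RW samples, and aN1aN2 spanned both. Lymphatic markers over EC3 samples with at least 20 cells summed to 2187 to 4348 CPM in RW and 4075 to 6245 in aJ1aJ2, so cells that reach 2 UMIs may not be alike between groups. The aJ1aJ2 1 value comes from 7 cells, with 55.3% of the UMIs in 1 cell, and the aN1aN2 2 value from 3 cells. Over the whole of EC3, where aJ1aJ2 1 had too few cells to enter, the log2 change of Dtx1 was 0.82 (SE 0.44, adjusted p 0.718 by edgeR) under aJ1aJ2 and -0.90 (SE 0.57, adjusted p 0.428 by edgeR) under aN1aN2.

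Under receptor blockade, 4 of the 6 members tested in EC1 fell against RW, namely Hes1, Hey1, Hey2 and Nrarp. Over all 9369 genes tested there, 8.93% were called lower and 17.8% in either direction. DESeq2 called 3 of the 6. Values within a label are CPM scaled by TMM, a correction for RNA composition. Tests are edgeR's quasi-likelihood tests on the summed counts, with p-values adjusted over all genes tested in the label and a call at an adjusted p under 0.05.

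Hes1 in EC1 stood at 211, 282 and 198 CPM in RW, 266, 292 and 231 in aJ1aJ2 and 112, 91.2 and 124 in aN1aN2. Every aN1aN2 sample lay below every other sample, while RW and aJ1aJ2 overlapped. The log2 change under aN1aN2 was -1.07 (SE 0.18, adjusted p 0.000139 by edgeR), from 230.1 ± 45.3 to 109 ± 16.7 CPM (SD, n = 3 each). Hes1 was called in all 16 alternatives, with log2 changes from -1.25 to -0.88. At 1000 UMIs per cell, 9.85% of 264 aN1aN2 cells and 20.6% of 678 aJ1aJ2 cells of EC1 had a Hes1 UMI (29.9% and 52.7% unthinned). At 500 UMIs per cell the shares were 10.4% in RW, 12.2% in aJ1aJ2 and 2.27% in aN1aN2, a wider gap between RW and aN1aN2 as a ratio.

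Hey1 in EC1 stood at 19.3, 26.9 and 44.5 CPM in RW, 39.1, 45.3 and 30.3 in aJ1aJ2 and 2.29, 2.68 and 6.37 in aN1aN2. The aN1aN2 samples again lay below all others. They rest on 4 UMIs against 162 in RW, 9.10-fold lower relative to TMM-scaled library sizes with a 95% counting interval of 3.49 to 33.8, which covers counting error only. The fitted log2 change was -3.10 (SE 0.61, adjusted p 0.000823 by edgeR), called in all 16 alternatives.

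Hey2 in EC1 stood at 22.6, 16.9 and 9.54 CPM in RW, 13.0, 21.7 and 16.8 in aJ1aJ2 and 2.29, 5.36 and 3.18 in aN1aN2, where 4 UMIs were counted. No aN1aN2 sample reached the other groups. The log2 change was -2.11 (SE 0.64, adjusted p 0.0248 by edgeR), and the UMI counts gave 4.32-fold lower relative to TMM-scaled library sizes with a 95% counting interval of 1.62 to 16.3. The call of Hey2 was lost without RW 1 (adjusted p 0.0695), aN1aN2 1 (0.132), aN1aN2 2 (0.0538) or aN1aN2 3 (0.0778), and by DESeq2 (adjusted p 0.0570).

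Nrarp in EC1 stood at 132, 124 and 129 CPM in RW, 104, 35.8 and 63.3 in aJ1aJ2 and 77.8, 61.7 and 73.2 in aN1aN2. Both treated groups lay wholly below RW and overlapped each other. Under aN1aN2 the log2 change was -0.85 (SE 0.26, adjusted p 0.0283 by edgeR), a call lost without RW 1 (adjusted p 0.0502), aN1aN2 1 (0.0709), aN1aN2 2 (0.125) or aN1aN2 3 (0.0775). Exons of Nrarp overlap the antisense gene Gm38287, and whether the counting used strand is not given in the sources used here. Gm38287 had 3, 7 and 1 UMIs in RW, aJ1aJ2 and aN1aN2, against 957, 392 and 203 of Nrarp.

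Hes6 in EC1 stood at 15.3, 16.2 and 16.4 CPM in RW and 27.4, 37.5 and 25.5 in aN1aN2, without overlap, and its log2 change of 0.92 (SE 0.33, adjusted p 0.0612 by edgeR) did not pass, though it did with only these groups in the fit (adjusted p 0.0390). Dtx3 in EC1 stood at 39.9, 26.2 and 39.1 CPM in RW and 45.7, 42.9 and 47.7 in aN1aN2, also without overlap, with a log2 change of 0.35 (SE 0.24, adjusted p 0.360 by edgeR) that did not pass. Heyl, Dtx1 and Dtx4 failed the filter in EC1, with 10, 0 and 5 UMIs in RW.

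**Figure D2:**
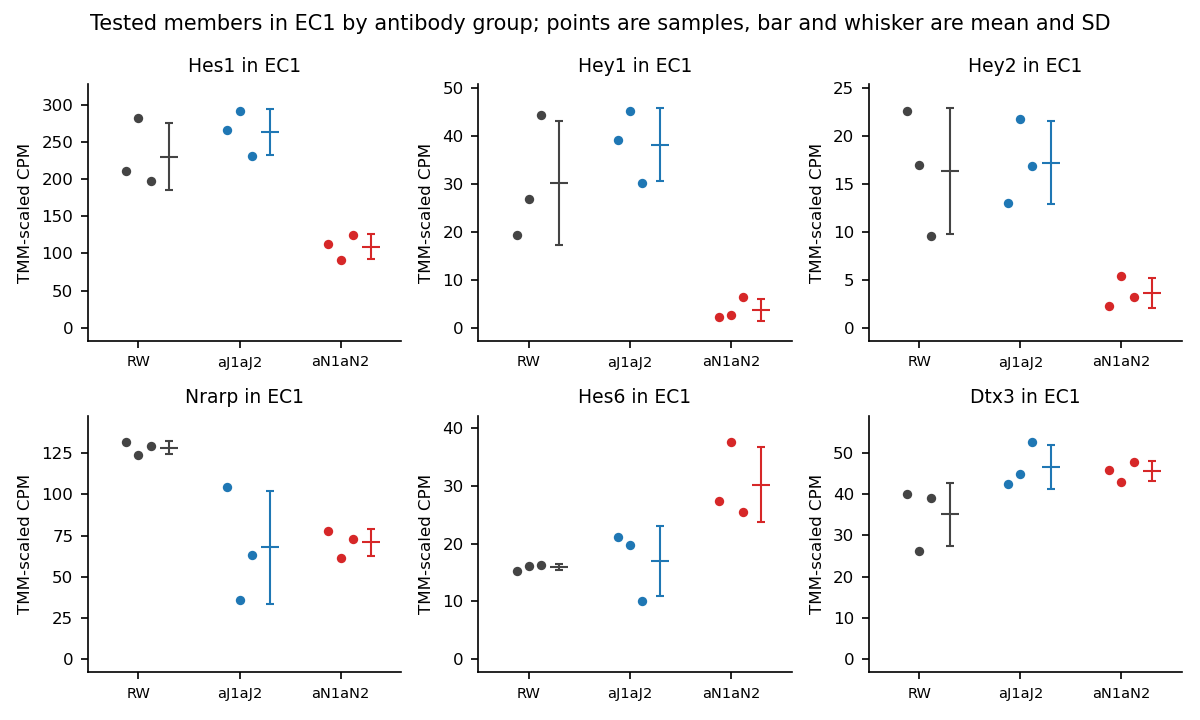
The 6 tested members in EC1 by antibody group, as TMM-scaled CPM on the vertical axis; points are samples, with mean and SD over 3 samples. Hes1, Hey1 and Hey2 in aN1aN2 lie below all RW and aJ1aJ2 samples, and Nrarp lies below RW in both treated groups.

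Arterial markers were lower in EC1 of aN1aN2 as well. The sum of 8 of them was 467 to 518 CPM in RW, 547 to 606 in aJ1aJ2 and 199 to 266 in aN1aN2, with Bmx and Gja5 at 0 in every aN1aN2 sample. Efnb2, in that list, is itself among the reported Notch targets. Cells with at least 2 arterial UMIs, a division also made after values were seen, held 153 of 162 Hey1 UMIs in RW. At 1000 UMIs per cell, 10.6% of RW cells and 3.41% of aN1aN2 cells of EC1 reached 2 arterial UMIs.

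Those markers were lower in aN1aN2 and their UMIs follow depth, so the divided cells are not like for like between groups, and the pooled values are given with no test. Pooled Hes1 was 237 CPM in RW and 101 in aN1aN2 among cells with at least 2 arterial UMIs, and 185 and 112 among the others. Hey1 was 46.8 and 4.95 CPM (2 UMIs) in the former and 4.85 and 2.76 (2 UMIs) in the latter. The sum of dissociation genes in EC1 ranged from 1420 to 1900 CPM over RW samples and from 1779 to 2015 over those of aN1aN2, and of 15 tested 3 rose and 3 fell. Their part in the member values was not tested.

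**Figure D3:**
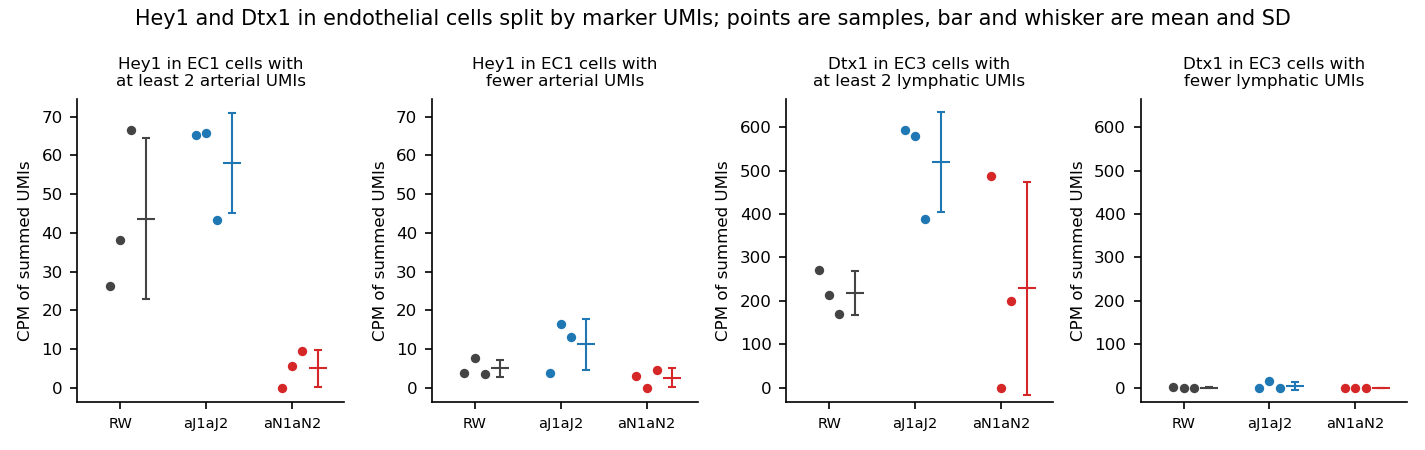
Hey1 in EC1 cells divided by arterial marker UMIs, and Dtx1 in EC3 cells divided by lymphatic marker UMIs, as CPM of summed UMIs on the vertical axis by antibody group; points are samples. Dtx1 is near 0 in cells with fewer than 2 lymphatic UMIs, and Hey1 in aN1aN2 is low on both sides.

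Under ligand blockade, Nrarp was the only 1 of the 6 members called in EC1 against RW, and it fell, where 0.886% of all genes were called lower and 1.43% in either direction. Its log2 change was -1.04 (SE 0.22, adjusted p 0.0186 by edgeR), with aJ1aJ2 1 nearest to RW. Within the title number range of RW 1, RW 2, aJ1aJ2 3 and aJ1aJ2 4 the change of Nrarp was -1.37 (adjusted p 0.000128), and with the range as a term -1.03 (0.0280). The call of Nrarp was lost without RW 1 (adjusted p 0.0504), RW 2 (0.0579), aJ1aJ2 3 (0.184) or aJ1aJ2 4 (0.150), with only these groups in the fit (0.0584) and with equal cell numbers (0.341). Hes1, Hey1 and Hey2 had log2 changes of 0.20, 0.28 and 0.19 (SE 0.14, 0.25 and 0.31), with overlapping groups. Dtx3 stood at 42.4, 44.7 and 52.5 CPM in aJ1aJ2, all above the RW samples that both contrasts share, and its log2 change of 0.41 (SE 0.19, adjusted p 0.368 by edgeR) did not pass. Of the 6 members, 2, Nrarp and Dtx3, had an unadjusted p under 0.05. In the same label and contrast, 0 of 15 dissociation genes rose and 5 fell, with a median log2 change of -0.57 beside 0.01 over all genes, and their sum was 1420 to 1900 CPM over RW and 946 to 1482 over aJ1aJ2 samples. Their part in the Nrarp value was not tested.

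Set against each other, the treatments differed in EC1 for Hes1, Hey1 and Hey2, all lower in aN1aN2, 3 of 6 members where 6.59% of genes were called lower and 13.5% either way. The log2 differences were -1.27 (SE 0.18, adjusted p 2.80e-05 by edgeR) for Hes1, -3.38 (SE 0.60, adjusted p 0.000373 by edgeR) for Hey1 and -2.30 (SE 0.64, adjusted p 0.0176 by edgeR) for Hey2. Nrarp differed by 0.19 (SE 0.29, adjusted p 0.754 by edgeR). Hey2 was not called without aJ1aJ2 3 (adjusted p 0.0584), aN1aN2 1 (0.111) or aN1aN2 3 (0.0634), nor by DESeq2 (adjusted p 0.0525). The comparisons share samples, those with RW the RW samples and those with aN1aN2 the aN1aN2 samples.

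In EC3, Hey1 fell under aN1aN2 against RW, the only 1 of 5 members called, where 2.41% of genes were called lower and 5.91% either way. Hey1 stood at 93.8, 133 and 80.1 CPM in RW and 25.8, 12.8 and 69.8 in aN1aN2, so the highest aN1aN2 sample came just short of the lowest RW sample. The log2 change was -1.51 (SE 0.43, adjusted p 0.0490 by edgeR), lost without RW 1 (adjusted p 0.0769), RW 2 (0.114), aN1aN2 1 (0.145) or aN1aN2 2 (0.238), by DESeq2 (adjusted p 0.0971), with samples of at least 10 cells (0.0636) and with only these groups in the fit (0.0669). Over RW samples, lymphatic markers in EC3 summed to 2187 to 4348 CPM and arterial markers to 1837 to 2873, over aN1aN2 samples to 1188 to 2638 and 1532 to 2879, and their part was not tested.

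The other members of EC3 did not pass with all samples and the filter. Hes1 stood at 169.7, 127 and 136 CPM in RW, 192 and 214 in aJ1aJ2 3 and 4, and 51.6, 134 and 48.9 in aN1aN2, where aN1aN2 2 was the high sample, and the log2 difference between the treatments was -1.32 (SE 0.34, adjusted p 0.0666 by edgeR). Against RW the change of Hes1 under aN1aN2 was -0.84 (SE 0.32, adjusted p 0.152 by edgeR). Without aN1aN2 2 both were called (adjusted p 0.0138 between the treatments and 0.0233 against RW), and that between the treatments also with no filter (0.00206), equal cell numbers (0.0319) or only these groups in the fit (0.0484). Dtx3 in EC3 stood at 112, 70.7 and 69.5 CPM in RW and 34.4, 19.2 and 55.9 in aN1aN2, without overlap (-1.22, SE 0.39, adjusted p 0.0842). Nrarp in EC3 ran from 63.9 to 96.2 CPM in RW, 36.5 to 65.0 in aJ1aJ2 and 27.9 to 103 in aN1aN2, with overlap. Heyl failed the filter in EC3, with 31 UMIs in RW, 2 in aJ1aJ2 and 2 in aN1aN2. Over the samples with at least 20 cells, which hold 1 of the UMIs in aJ1aJ2, Heyl was 15.2-fold lower relative to TMM-scaled library sizes with a 95% counting interval of 2.54 to 620.4 under aJ1aJ2. Under aN1aN2 it was 4.70-fold lower relative to TMM-scaled library sizes with a 95% counting interval of 1.20 to 40.6, for counting error only. Under aJ1aJ2, edgeR called 0 of 5 members in EC3 against 0.0618% of genes, with 0 at an unadjusted p under 0.05 and 0 by DESeq2. Between the treatments it called 0 of 5 against 1.27% of genes, with 2 at an unadjusted p under 0.05 and 0 by DESeq2.

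In EC4, a label with endothelial markers and a median of 1045.5 UMIs per cell, Hes1 stood at 194, 415 and 264 CPM in RW, 261, 409 and 316 in aJ1aJ2 and 145, 197 and 162 in aN1aN2. The aN1aN2 samples lay below all of aJ1aJ2 and overlapped RW. Against aJ1aJ2 Hes1 was lower, 1 of 2 members tested (8.09% of genes were called lower and 17.2% either way), by a log2 difference of -1.04 (SE 0.26, adjusted p 0.00511 by edgeR). That call was lost without aJ1aJ2 3 (adjusted p 0.0687) and with equal cell numbers (0.170). Against RW the change was -0.73 (SE 0.28, adjusted p 0.0639 by edgeR), called without RW 1 (adjusted p 0.0259) and with only cells of at least 1000 UMIs (0.0196). Nrarp, the other member tested in EC4, stood at 124, 222 and 169 CPM in RW, 308, 46.9 and 75.9 in aJ1aJ2 and 106, 106 and 85.7 in aN1aN2, with aJ1aJ2 1 the high sample. Against RW, edgeR called 0 of the 2 under aJ1aJ2 (0.903% of genes) and 0 under aN1aN2 (21.1%), with 0 and 1 at an unadjusted p under 0.05 and 0 and 0 by DESeq2, which adjusted 1 and 2 of them.

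In EC2, tested on 2 RW, 2 aJ1aJ2 and 3 aN1aN2 samples, edgeR called 0 of 3 members in each contrast and DESeq2 0, though it adjusted only 1 of the 3 for aJ1aJ2 against RW, while unadjusted p under 0.05 was met by 0 for aJ1aJ2 and 1 for aN1aN2 against RW and 2 between the treatments. Of all genes, 1.91%, 15.5% and 10.5% were called. Hey1 in EC2 stood at 59.1 and 104 CPM in RW and 0, 30.1 and 0 in aN1aN2, on 20 and 2 UMIs, 7.02-fold lower relative to TMM-scaled library sizes with a 95% counting interval of 1.71 to 62.0. Hes1 in EC2 stood at 130.0 and 290.5 CPM in RW and 167, 241 and 236 in aN1aN2, which overlapped. Nrarp in EC2 ran from 124 to 165 CPM in RW, 101 to 111 in aJ1aJ2 and 135 to 260 in aN1aN2. There aN1aN2 overlapped RW and lay above aJ1aJ2, unlike the fall against RW in EC1.

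Over the labels other than Th1 and Th3 that could be tested, 6 of 19 pairs of member and label were called under aN1aN2 against RW, all lower, beside 15.3% of all pairs of gene and label. Under aJ1aJ2 1 of 19 was called, beside 0.719%, and between the treatments 4 of 23, beside 10.4%. The pairs under aN1aN2 were the 4 of EC1, Hey1 in EC3 and Hes1 in F.

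In fibroblasts (F), Hes1 stood at 246, 103 and 114 CPM in RW, 105, 63.3 and 75.1 in aJ1aJ2 and 75.7, 13.3 and 41.9 in aN1aN2. RW 1 was the high sample and aN1aN2 2 the low one, and aN1aN2 did not overlap RW. Hes1 fell under aN1aN2, the only 1 of 3 members called in F (10.6% of genes were called lower and 19.8% either way), with a log2 change of -1.77 (SE 0.47, adjusted p 0.0124 by edgeR) on 18 UMIs against 129. In each aN1aN2 sample the cell with most held 50% of them. The call was lost without RW 1 (adjusted p 0.0577) or aN1aN2 2 (0.0930) and with equal cell numbers (0.170). Under aJ1aJ2, edgeR called 0 of 3 members against 0.579% of genes and DESeq2 0, and 1, Hes1, had an unadjusted p under 0.05 (-0.94, SE 0.32, adjusted p 0.322). That change of Hes1 was 0.12 with equal cell numbers, the opposite direction, and was called with no filter (-0.88, adjusted p 0.0366). Between the treatments edgeR called 0 of 3 against 16% of genes, with 1 at an unadjusted p under 0.05 and 0 by DESeq2.

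Genes of the dissociation response, a list of 17 immediate early and heat shock genes, were higher in F of aN1aN2. Of 13 tested, 6 rose and 0 fell (of all 4840 genes 444 rose and 514 fell), among them Fos (log2 change 3.50, SE 0.65) and Junb (1.65, SE 0.31), both chosen after their values were seen, with a median log2 change of 1.32 beside 0.01 over all genes. Over RW samples their sum was 1445 to 1978 CPM, and over aN1aN2 samples 2223 to 2548. Endothelial markers in F summed to 46.2 to 122 CPM over RW samples and 39.5 to 60.3 over aN1aN2 samples, and the part of both in the Hes1 value was not tested. Heyl failed the filter in F, with 1 UMI in aN1aN2 and 24 in RW, 11.2-fold lower relative to TMM-scaled library sizes with a 95% counting interval of 1.82 to 459.9.

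**Figure D4:**
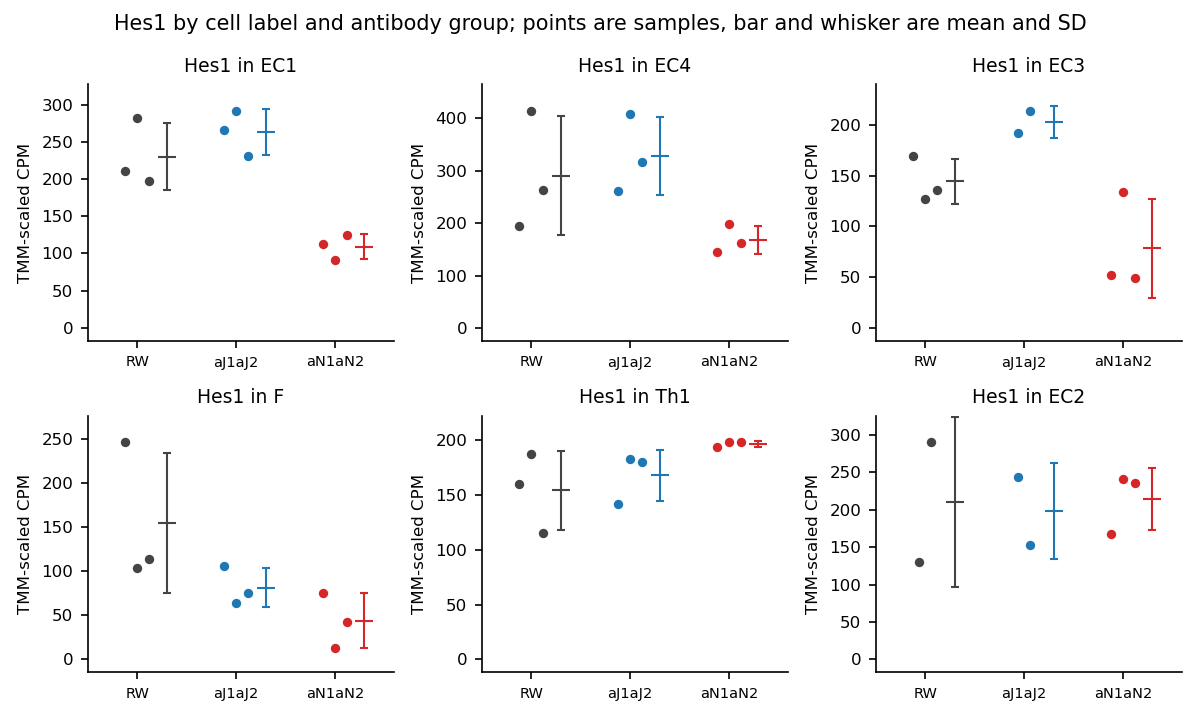
Hes1 as TMM-scaled CPM on the vertical axis by antibody group in 6 labels; points are samples, with mean and SD. In EC1 and F the aN1aN2 samples lie below all RW samples, and in Th1 they lie above all of them.

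In thyrocytes (Th1), Heyl and Dtx4 fell under aN1aN2 against RW, 2 of 6 members, where 17.3% of genes were called lower and 34.4% in either direction, a share close to that of the members. Heyl stood at 14.0, 10.8 and 15.6 CPM in RW, 9.14, 10.0 and 9.92 in aJ1aJ2 and 7.68, 6.06 and 7.25 in aN1aN2. The groups did not overlap, with aJ1aJ2 in between. The log2 change of Heyl was -0.99 (SE 0.26, adjusted p 0.00789 by edgeR) under aN1aN2. That call was lost by DESeq2 (adjusted p 0.0537) and with equal cell numbers (0.171). It was also lost with replicate number as a term over RW 1, RW 2, aN1aN2 1 and aN1aN2 2. Under aJ1aJ2 the change of Heyl was -0.52 (SE 0.22, adjusted p 0.348 by edgeR), and 0.0074 with equal cell numbers. In the same Th1 samples smooth muscle markers summed to 13.3 to 53.1 CPM in RW, 10.2 to 38.7 in aJ1aJ2 and 6.88 to 10.4 in aN1aN2, and pericyte markers to 27.3 to 59.6, 16.4 to 33.3 and 13.1 to 20.6. All aN1aN2 samples lay below all RW samples in both sums, with Cnn1 and Cspg4 at 0 in aN1aN2, and their part in the Heyl value was not tested.

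Dtx4 in Th1 stood at 10.9, 16.9 and 14.2 CPM in RW, 12.9, 14.0 and 14.6 in aJ1aJ2 and 6.58, 7.27 and 9.67 in aN1aN2, which lay below both other groups. Its log2 change was -0.84 (SE 0.27, adjusted p 0.0246 by edgeR) against RW, and -0.88 (SE 0.28, adjusted p 0.0325 by edgeR) against aJ1aJ2, where it was the only 1 of 6 members called (11.5% of genes were called lower and 22.3% either way). The call against RW was lost without RW 2 (adjusted p 0.0582), RW 3 (0.0750), aN1aN2 1 (0.119) or aN1aN2 2 (0.0847), by DESeq2 (adjusted p 0.0876) and with equal cell numbers (0.137). That against aJ1aJ2 was lost without aJ1aJ2 3 (adjusted p 0.0806), aJ1aJ2 4 (0.0729), aN1aN2 1 (0.145) or aN1aN2 2 (0.111), by DESeq2 (adjusted p 0.121) and with equal cell numbers (0.130).

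Hes1 in Th1 stood at 160.2, 187 and 115 CPM in RW, 141, 183 and 179.7 in aJ1aJ2 and 194, 198 and 198 in aN1aN2. The aN1aN2 samples were the highest of the 9, and the log2 change of 0.37 (SE 0.15, adjusted p 0.0772 by edgeR) did not pass, though it did without RW 2 (adjusted p 0.0244). At 1000 UMIs per cell, 20.1% of aN1aN2 and 20.2% of aJ1aJ2 cells of Th1 had a Hes1 UMI (68.1% and 85.4% unthinned). Summed dissociation genes in Th1 were at 989 to 1156 CPM in aN1aN2, within the RW range of 776 to 1355. Of 13 tested, 3 rose, Zfp36 (log2 change 1.63, SE 0.24), Btg2 (1.32, SE 0.22) and Hspa1a (0.58, SE 0.14), and 1, Jun, fell (-0.91, SE 0.29), with a median log2 change of 0.41 beside 0.02 over all genes. Their part in the Hes1 value was not tested.

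Hey1 in Th1 stood at 5.99, 5.40 and 6.83 CPM in RW and 2.19, 3.64 and 4.84 in aN1aN2, without overlap, and its log2 change of -0.91 (SE 0.39, adjusted p 0.0841 by edgeR) did not pass. Hes6 stood at 44.2, 49.9 and 59.9 CPM in RW and 47.7, 54.5 and 30.2 in aN1aN2 (-0.17, SE 0.21, adjusted p 0.566), and Dtx3 at 47.5, 60.1 and 48.6 and 53.2, 67.3 and 41.1 (0.12, SE 0.16, adjusted p 0.618), both with overlap. Nrarp, Hey2 and Dtx1 failed the filter in Th1. Nrarp there had 32, 5 and 22 UMIs in RW, 3, 5 and 3 in aJ1aJ2 and 2, 3 and 0 in aN1aN2, and with no filter it was called lower under aJ1aJ2 (adjusted p 0.0364) and aN1aN2 (0.00701). Endothelial markers in Th1 summed to 379.6 to 523 CPM in RW, 198 to 457 in aJ1aJ2 and 84.8 to 421 in aN1aN2.

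Under aJ1aJ2, edgeR called 0 of 6 members in Th1, beside 0.612% of all genes, DESeq2 called 0 of the 5 it adjusted, and 1, Heyl, had an unadjusted p under 0.05. Hes1, Hes6, Hey1, Dtx3 and Dtx4 had log2 changes of 0.15, 0.03, -0.17, -0.03 and 0.04, with groups that overlapped.

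**Figure D5:**
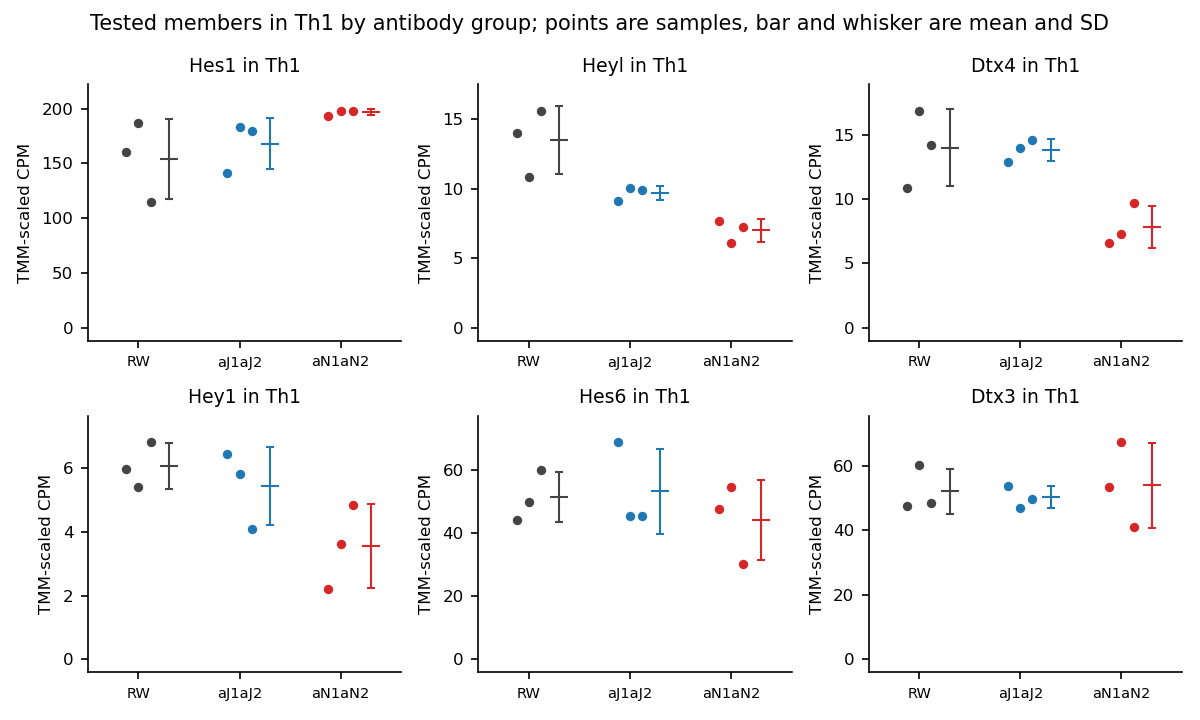
The 6 tested members in Th1 by antibody group, as TMM-scaled CPM on the vertical axis; points are samples, with mean and SD over 3 samples. Heyl and Dtx4 in aN1aN2 lie below RW, and Hes1 in aN1aN2 lies above it.

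Whether the labels responded differently was tested with both labels of each sample in 1 model. The log2 response of Hes1 to aN1aN2 in EC1 minus that in Th1 was -1.51 (SE 0.18, adjusted p 7.65e-06), and in F minus that in Th1 -2.14 (SE 0.42, adjusted p 0.000469), both by edgeR. The F difference was not called with equal cell numbers (-1.76, adjusted p 0.0500). Hes1 was the only 1 of 8 members called between EC1 and Th1, where 8.69% of genes were called, and the only 1 of 5 between F and Th1, where 5.43% were. Hes6 and Hey1 came next between EC1 and Th1, with 1.06 (SE 0.34, adjusted p 0.0528) and -2.32 (SE 0.75, adjusted p 0.0574). For aJ1aJ2, edgeR called 0 of 8 and 0 of 5 members, beside 0.369% and 0.338% of genes, and 0 and 1 had an unadjusted p under 0.05. That 1 was Hes1 in F minus Th1, at -1.03 (SE 0.29, adjusted p 0.129). It was 0.084 with equal cell numbers, and was called with no filter (-0.97, adjusted p 0.0456), without aJ1aJ2 1 (-1.31, adjusted p 0.000249) and without RW 2 (-1.46, adjusted p 0.00441).

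SM could be tested only between the treatments. edgeR called 0 of 4 members there, beside 4.05% of genes, DESeq2 called 0 of the 3 it adjusted, and 1, Hey2, had an unadjusted p under 0.05. Hey2 stood at 91.9, 91.6 and 158 CPM in aN1aN2 and 32.4 and 10.7 in aJ1aJ2 3 and 4 (2.30, SE 0.95, adjusted p 0.195), and RW 3 at 90.4. Over samples of any cell number, Nrarp in SM had 31, 2 and 5 UMIs in 44, 113 and 91 cells of RW, aJ1aJ2 and aN1aN2. In RW, 12 of them lay in the 31 cells of RW 3. In Th3, Hes1 was the only member tested and edgeR called it in none of the 3 contrasts, beside 0% of genes for aJ1aJ2 and 5.03% for aN1aN2 against RW and 1.44% between the treatments, with no unadjusted p under 0.05 and no call by DESeq2. It stood at 93.6, 127 and 72.1 CPM in RW and 173, 116 and 268 in aN1aN2.

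Over all 9369 genes tested in EC1 under aN1aN2, 827 rose and 837 fell, 17.8% in all. Of 13 other reported Notch targets, 7 were tested in EC1 under aN1aN2, where 5 fell and 1 rose. Those that fell included the arterial ligand gene Efnb2 (log2 change -1.28, SE 0.15) and the inhibitors of differentiation Id3 (-1.27, SE 0.13) and Id1 (-1.14, SE 0.14), and the cell cycle inhibitor Cdkn1a rose (2.75, SE 0.29). Their median log2 change was -1.14, that of the 6 members -0.96 and that of all genes -0.01. Of 7 receptors and ligands tested, Dll4 fell (-0.85, SE 0.24) while Jag1 (0.85, SE 0.24), Notch2 (1.62, SE 0.47) and Notch4 (0.57, SE 0.18) rose. Of 28 modifiers and cofactors, 7 rose and 1 fell, with the protease Furin (1.30, SE 0.16) and the fringe glycosyltransferase Mfng (1.07, SE 0.15) among those that rose.

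Over all 10627 genes tested in Th1 under aN1aN2, 1814 rose and 1839 fell, 34.4% in all. There 7 of 25 modifiers and cofactors rose and 0 fell, among them the ubiquitin ligase genes Mib1 (log2 change 0.63, SE 0.18) and Itch (0.43, SE 0.13). Of 3 tested relatives of the Hes and Deltex families, the helix-loop-helix repressors Bhlhe40 (0.91, SE 0.21) and Bhlhe41 (1.38, SE 0.31) rose. Of 6 receptors and ligands, Notch2 rose (0.96, SE 0.16). The median of the 6 members in Th1 was -0.51, beside 0.02 over all genes. Of the other reported targets, 2 rose and 1 fell among 10 tested, and of the dissociation genes 3 rose and 1 fell among 13. Under aJ1aJ2 no gene of these lists was called in Th1 by edgeR, and those called in EC1 were Bhlhe41, which rose (log2 change 1.78, SE 0.39), Cdkn1a, which fell (-2.06, SE 0.34), and the 5 dissociation genes that fell, among them Hspa1a (-2.59, SE 0.33) and Fos (-1.56, SE 0.36).

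The genes closest to each member over the labels were sought by Pearson correlation of log2(CPM + 1) over 13 labels with at least 50 RW cells, a description over labels that share libraries. For Hes1 they were Id3 (0.98), Fam171a1 (0.98) and Lzts2 (0.98). For Nrarp they were Zfp979 (0.96), Rapgef4 (0.96) and St6galnac3 (0.95), for Hey1 Jcad (0.96), Hyal2 (0.96) and Cavin2 (0.95) and for Heyl Fhl1 (0.98), Pard3b (0.97) and Dpysl3 (0.97). Hes6 was closest to Pdk3 (0.96), Uchl3 (0.96) and Acyp1 (0.96), Dtx3 to Zfp260 (0.98), Golph3 (0.98) and Timm21 (0.98) and Dtx4 to Pla2g4a (0.89), Lgals3 (0.89) and Rnf150 (0.89). Among the members, r was 0.85 for Hes1 and Hey1, 0.84 for Hey1 and Nrarp, and 0.31 for Hes1 and Hes6. Hey2 and Dtx1 had under 200 UMIs in RW and were left out.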

How the data were processed

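Single cells from digested thyroids were captured with a droplet 3' kit that tags each RNA molecule with a UMI, per the labels' protocols. Whole-number UMI counts per gene and cell, with a cell label and sample for each of 10186 cells, were deposited by the authors. Cell Ranger and the GRCm38 build are named in the submitters' processing notes, and their versions and the doublet treatment are not given in the sources used here. The 233 identifiers without a symbol held 0.0293% of UMIs and were not removed before the filter, library sizes and tests.

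Counts were summed per sample and label, keeping samples with at least 20 cells and contrasts with at least 2 such samples a group. All groups entered 1 edgeR 4.0.16 quasi-likelihood fit per label (R 4.3.3, filterByExpr, TMM), with Benjamini-Hochberg adjustment over all genes tested and a call at 0.05. Responses of 2 labels were compared with sample as a block. DESeq2 1.42.0, other filters, scalings, cell numbers and left-out samples were alternatives. Counting intervals cover 95% of counting error only. Replicate samples differed by more than sampling noise. The fits were tested on simulated data, where 45 of 50 genes raised 2-fold and 37 of 50 lowered to 0.5-fold were called for aN1aN2 against RW in Th1 (10442 genes). In the fit of EC1 against Th1 (11372 genes), 23 of 50 and 15 of 50 such genes were. Changed genes were drawn only above a floor of summed counts, which Hey1 in Th1 did not reach. These shares therefore do not hold for members with few UMIs. RW 3 and aJ1aJ2 1 carry no number in their titles and were numbered here.

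The 9 genes and the lists were chosen with earlier results of these data known. Named genes are the members, all of them, then up to 4 called genes per pathway list with the smallest adjusted p in Th1 and EC1, and the 3 genes most alike to each member. Outside that rule, Fos and Junb in F and single marker genes were named after their values were seen.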

Additional observations from a re-analysis of the deposited data

Results flagged for a closer look

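The response of Hes1 to aN1aN2 differed between labels by a test of the difference itself. The log2 change in EC1 minus that in Th1 was -1.51, and the log2 change in F minus that in Th1 was -2.14, in the edgeR fits that hold both labels of each sample. With equal cell numbers the F difference was -1.76 and was not called (edgeR adjusted p 0.0500, above 0.05 before rounding).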

How the results depend on the processing

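Counts of called members moved with the processing. In Th1 under aN1aN2, 2 members were called, 3 with no filter (Nrarp added), 0 by DESeq2 and with equal cell numbers, and 1 to 2 when each sample was left out (without RW 2, Hes1 higher and Heyl lower). With the replicate block over RW 1, RW 2, aN1aN2 1 and aN1aN2 2, whose shared numbers nothing in the labels ties to a litter or day, 1 was called (Heyl had an edgeR adjusted p of 0.0680), and Hes6 was at 0.12. Against aJ1aJ2, 1 was called in Th1, 0 by DESeq2 and with equal cell numbers, and 0 to 1 when each sample was left out. Under aJ1aJ2, 0 were called in Th1 and 1 (Nrarp) with no filter. Over the other labels, aJ1aJ2 gave 1 call, 3 with no filter, 0 with equal cell numbers or only the compared groups, and 0 to 1 when each sample was left out. There aN1aN2 gave 6 calls (9 with no filter, 5 with only the compared groups, of which Hes6 in EC1 was higher, and 3 to 6 when each sample was left out) and aN1aN2 against aJ1aJ2 gave 4 (7 with no filter, 2 to 6 when each sample was left out).

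Between EC1 and Th1 1 response to aN1aN2 differed, 2 with DESeq2 size factors or no filter, and 1 to 2 when each sample was left out. Between F and Th1 1 differed, and 0 with equal cell numbers. For aJ1aJ2 0 differed between F and Th1, 1 with no filter, and 0 to 1 when each sample was left out.

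The changes that reversed were not called with all samples and the filter, nor were the reversed values. With equal cell numbers under aJ1aJ2, Hes1 in F was at 0.12, Hes1 in F minus Th1 at 0.084, Hes6 in Th1 at -0.0067 and Heyl in Th1 at 0.0074. Hes6 was at -0.024 within the title range of RW 1. With each sample left out, log2 changes in Th1 under aJ1aJ2 ran from -0.031 to 0.29 for Hes1, -0.19 to 0.18 for Hes6, -0.10 to 0.050 for Dtx3 and -0.15 to 0.13 for Dtx4, and Hes1 in EC1 minus Th1 from -0.073 to 0.16. Dtx3 under aN1aN2 ran from -0.070 to 0.24 against RW and -0.028 to 0.27 against aJ1aJ2, and Hes6 from -0.35 to 0.021 against aJ1aJ2. The cause was not tested, except that no filter tests more genes and left-out samples or cells leave fewer counts. Pairing by replicate number was not possible for aJ1aJ2 against RW because their titles share fewer than 2 such numbers. The title number range, which they do share, was used as a term instead.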
